A study of Homo sapiens with 6 samples.

Results

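The D-type cyclins are CCND1, CCND2 and CCND3, and 8 of the 54675 probe sets in the expression table carry one of these symbols, each with no other symbol beside it. CCND1 was read by 2 probe sets, CCND2 by 4 and CCND3 by 2. Each of the 19775 genes measured is represented by its brightest probe set, by mean value on the 6 arrays, and the other probe sets of the members are given as well. HCT116, an established human colorectal carcinoma line, received 30 nM of a siRNA pool against CDK4 plus 30 nM of a siRNA against CDK6 (CDK4/6 siRNA), or 30 nM each of a non-targeting pool and a negative control siRNA (control siRNA). All cells grew in medium with 12.5 mM glucose, went through the same lipid transfection, were given fresh medium after 24 h and were taken at 96 h, with 3 arrays labelled as biological replicates per group. The labels do not tie these to separate cultures or days, which limits every p-value to the spread of these arrays, and the data describe 1 line.

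Cyclin D proteins are the regulatory partners of CDK4 and CDK6. Mitogen signals raise their synthesis, the assembled kinase phosphorylates the retinoblastoma protein, and this releases E2F transcription factors so that the cell can leave G1. CDK inhibitors of the INK4 family compete with cyclin D for the kinase, while proteins of the CIP/KIP family bind the assembled complex, and cyclin D itself is short-lived because ubiquitin ligases remove it. In intestinal epithelium CCND1 is known as an output of Wnt and growth factor signalling.

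Array medians lay between 5.36 and 5.39 on the log2 scale, and 2 arrays correlated over genes at 0.998 inside a group and at 0.991 to 0.994 from different groups. Colorectal epithelial genes were present, with EPCAM at a control mean of 12.80 and KRT18 at 13.02. The intestinal genes VIL1 and CDX2 gave control means of 5.02 and 5.57, near or below the array median. Of the 8 epithelial genes KRT8, KRT18 and KRT20 were higher, by 0.59, 0.51 and 0.75, and CDH1 lower by 0.54 (all called). EPCAM, KRT19, VIL1 and CDX2 were not called. The mean of the epithelial genes was 9.65 to 9.72 in control arrays and 9.82 to 9.89 in CDK4/6 siRNA arrays. The leukocyte genes PTPRC, CD3E and CD14 all lay below the array median. The mean of the leukocyte genes was 4.36 to 4.45 in control arrays and 4.29 to 4.55 in CDK4/6 siRNA arrays. Of 5 mesenchymal genes 3 lay above the median, with COL1A1 at 8.09 in control arrays and lower by 0.49 (called), and their mean was 5.71 to 5.84 in control and 5.56 to 5.74 in CDK4/6 siRNA arrays. Of 3 endothelial genes only PECAM1 did, at a control mean of 6.29 (-0.059, not called), and their mean was 5.18 to 5.37 and 5.23 to 5.34. The part of these genes in the results was not tested. Both siRNA targets had lower values in every CDK4/6 siRNA array than in the lowest control. On their brightest probe sets CDK6 was at 34.0% of its control level, a log2 change of -1.56 (SE 0.0551), and CDK4 at 62.2%, a change of -0.69 (SE 0.0815). The dimmer CDK6 probe sets gave -1.57, -1.68, -1.73, -0.55, -0.14 and -1.41, of which only the -0.14 was not called. The mean of all CDK6 probe sets gave -1.24. In such bulk RNA, fewer cells that express a gene and less of its RNA per cell cannot be told apart.

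CCND1 and CCND3 rose in the CDK4/6 siRNA cells and CCND2 did not pass the test. CCND1 was 1.91-fold and CCND3 1.69-fold of control on their brightest probe sets. Of all genes, 14.0% were called higher, and 26.8% were called in either direction, at an adjusted p under 0.05. The rise of CCND1 ranked 67th of 19775 genes by size and that of CCND3 179th, so 0.339% and 0.905% of genes rose at least as far.

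**Figure D1:**
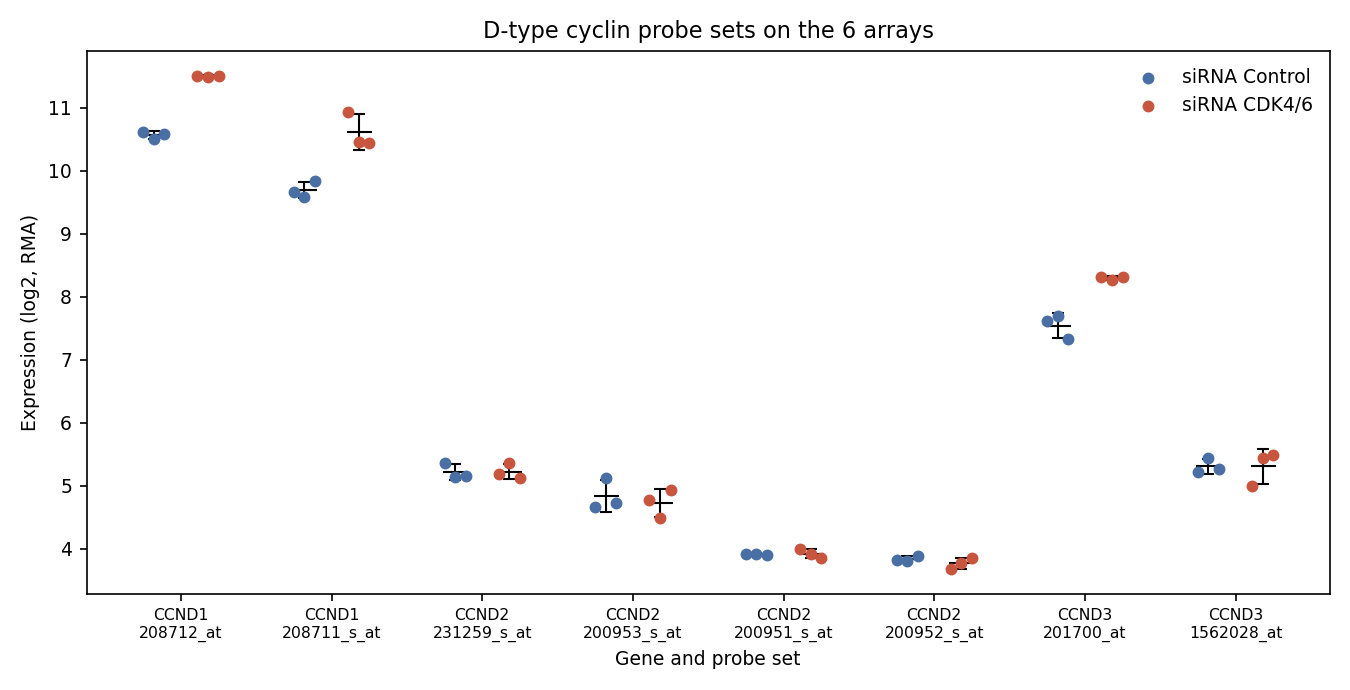
Expression (vertical axis, log2, RMA) of the 8 D-type cyclin probe sets (horizontal axis) on the 3 control siRNA arrays (blue) and the 3 CDK4/6 siRNA arrays (red). Points are arrays, and black bars are the mean and SD. The groups are apart for both CCND1 probe sets and for the CCND3 probe set 201700_at, and overlap for the other 5.

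CCND1, on chromosome 11, encodes cyclin D1, the D-type cyclin that most often is overproduced in carcinomas. On its brightest probe set, 208712_at, the control arrays gave 10.63, 10.51 and 10.58 and the CDK4/6 siRNA arrays 11.51, 11.49 and 11.51. The CDK4/6 siRNA arrays differed from each other by less than the controls did, and the groups did not overlap, as in 20.6% of all genes with the CDK4/6 siRNA arrays on top and 40.9% in either direction. The group means were 10.57 ± 0.06 and 11.50 ± 0.01 (SD, n = 3). The log2 change was 0.93 (SE 0.0555, 95% interval 0.81 to 1.06, limma adjusted p = 3.64e-05). The second probe set, 208711_s_at, gave 9.67, 9.58 and 9.84 in control arrays and 10.94, 10.46 and 10.44 in CDK4/6 siRNA arrays. It too had no overlap between groups, but CDK4/6 siRNA replicate 1 stood 0.48 above the next array of its group on this probe set and not on the first. Its change was 0.92 (SE 0.131, limma adjusted p = 0.00132 over all 54613 probe sets that are not array controls, of which 17.0% were called and 8.86% were called higher). The probe sets of CCND1 thus gave the same size of change, with a wider spread on the second.

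CCND3, on chromosome 6, encodes cyclin D3, the D-type cyclin best known for its role in blood cells and muscle. On the probe set that stands for it, 201700_at, the control arrays gave 7.61, 7.70 and 7.32 and the CDK4/6 siRNA arrays 8.32, 8.27 and 8.32. The lowest CDK4/6 siRNA array lay 0.57 above the highest control array, and most of the spread was among the controls, of which replicate 3 was lowest. The means were 7.54 ± 0.20 and 8.30 ± 0.03 (SD, n = 3). The log2 change was 0.76 (SE 0.0918, 95% interval 0.55 to 0.97, limma adjusted p = 0.000469). The other CCND3 probe set, 1562028_at, was near the array median and did not pass. It gave 5.23, 5.45 and 5.26 in control arrays and 4.99, 5.45 and 5.50 in CDK4/6 siRNA arrays, a change of -0.00044 (SE 0.128, 95% interval -0.29 to 0.29). With both probe sets averaged CCND3 still passed, at a log2 change of 0.38 (SE 0.0873, limma adjusted p = 0.0123), so the size of its rise rests on 201700_at.

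RefSeq (GRCh38.p14) gives CCND3 3 start sites for which promoter sequence was at hand, on the minus strand of chromosome 6. The 250 bases before the first and the second of them are shown. No promoter sequence was at hand for CCND1 or CCND2. Capitals mark matches to the GC box GGGCGG on either strand.

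CCND3 start 1, chr6:42048689-42048938, minus strand: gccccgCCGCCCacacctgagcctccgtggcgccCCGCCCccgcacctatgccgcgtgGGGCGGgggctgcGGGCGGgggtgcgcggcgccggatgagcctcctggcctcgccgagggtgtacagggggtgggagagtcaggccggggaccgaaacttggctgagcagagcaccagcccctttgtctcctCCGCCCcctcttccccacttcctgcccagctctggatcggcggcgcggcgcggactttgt
CCND3 start 2, chr6:41941809-41942058, minus strand: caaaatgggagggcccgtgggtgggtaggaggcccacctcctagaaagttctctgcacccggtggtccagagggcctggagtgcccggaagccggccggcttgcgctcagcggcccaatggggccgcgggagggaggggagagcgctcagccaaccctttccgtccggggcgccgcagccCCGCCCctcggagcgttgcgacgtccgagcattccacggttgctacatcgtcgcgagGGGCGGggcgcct

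Start 1 held 5 GC boxes and start 2 held 2, against none in the window of start 3, and 42.6% of the 35116 promoter windows of the same length held at least 1. The windows were 74.4% and 71.2% GC, where the median window was 58.0%. Searched on both strands, the E-box CACGTG, the E2F core TTTNGCG, the CRE core TGACG, the AP-1 site TGANTCA, the CHR element TTTGAA and the TCF site CTTTGAT were not in any of the 3 windows. Of all windows, 6.34%, 4.32%, 21.2%, 6.57%, 13.3% and 2.26% held them, in that order. These are matches of letters only, and the arrays do not show which start was used.

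CCND2, on chromosome 12, encodes cyclin D2, known for its role in the growth of ovarian granulosa cells and lymphocytes. Its 4 probe sets all had means below the array medians, and none of them passed. The brightest, 231259_s_at, gave 5.37, 5.14 and 5.15 in control arrays and 5.18, 5.36 and 5.13 in CDK4/6 siRNA arrays. The groups overlapped fully. The log2 change was 0.0063 (SE 0.0846, 95% interval -0.19 to 0.20, limma adjusted p = 0.972). The other probe sets, 200953_s_at, 200951_s_at and 200952_s_at, had mean levels of 4.79, 3.92 and 3.81 and changes of -0.10, 0.0047 and -0.068, with limma adjusted p-values of 0.720, 0.978 and 0.598. The widest of their 95% intervals ran from -0.42 to 0.21. No detection calls were used, and RMA compresses changes at such levels, so these values bound the change in signal and not that in CCND2 RNA.

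**Figure D2:**
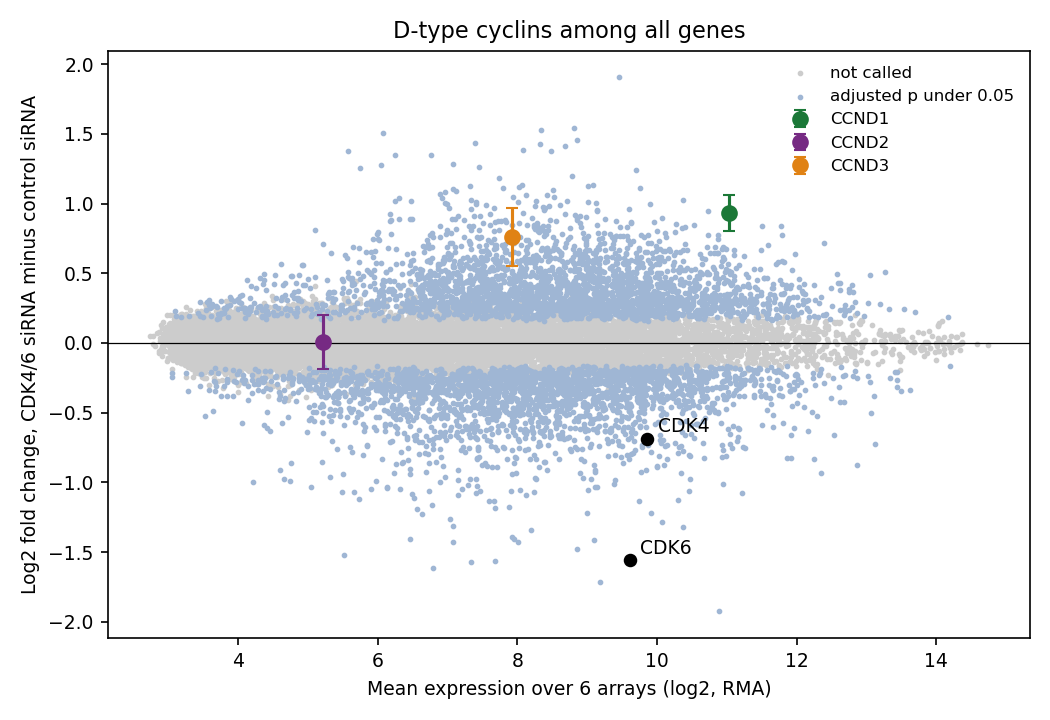
Log2 fold change (vertical axis, CDK4/6 siRNA minus control siRNA) against mean expression over the 6 arrays (horizontal axis, log2, RMA) for all 19775 genes, grey where not called and light blue at an adjusted p under 0.05. CCND1, CCND2 and CCND3 are drawn with 95% intervals, and CDK4 and CDK6 in black. CCND1 and CCND3 lie near the upper edge of the cloud at mean levels of 11.04 and 7.92, and CCND2 lies on 0 at 5.22.

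Of the 3 pairs of members, only CCND1 and CCND3 could be compared, because CCND2 signal lay below the array median. The CCND1 change minus that of CCND2 (0.93) and the CCND2 change minus that of CCND3 (-0.75) restate the changes of CCND1 and CCND3 and say nothing of CCND2 RNA. Between CCND1 and CCND3 the changes differed by 0.17, with a range over pairings of -0.069 to 0.41 (two-sided exact permutation p = 0.4, also 0.4 adjusted over the 3 pairs, where the smallest p that 3 arrays against 3 allow is 0.1), which was not larger than the spread between arrays. That comparison rests on the probe sets chosen, since with all probe sets averaged the difference was 0.55.

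**Figure D3:**
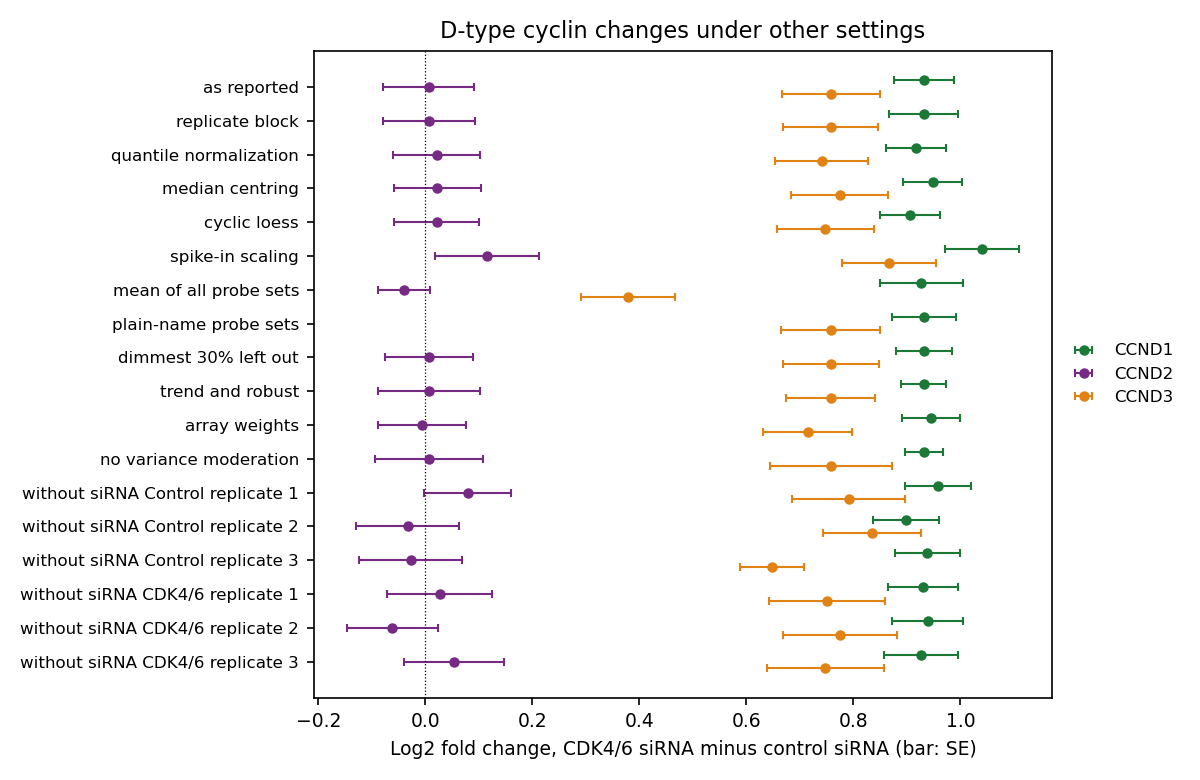
Log2 fold change (horizontal axis, bars are SE) of CCND1, CCND2 and CCND3 as reported and under each alternative setting (rows). CCND1 stays between 0.90 and 1.04, CCND3 drops to 0.38 with the mean of all probe sets, and CCND2, which has no probe set with a plain name (no suffix for shared probes), stays between -0.062 and 0.11.

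Across the 6 arrays, the genes most like CCND1 in their deviations from their own mean were CEMIP, a hyaluronan-degrading protein, IFI6, an interferon-induced gene, and SOCS4, a suppressor of cytokine signalling. Their root mean square differences from CCND1 were 0.041, 0.046 and 0.048 on the log2 scale, and their changes were 0.91, 1.02 and 0.90. For CCND3 the nearest were FERMT1, a kindlin that activates integrins, FARP2, an exchange factor for small GTPases, and NDUFAF4, a complex I assembly factor, at 0.038, 0.042 and 0.048, with changes of 0.71, 0.81 and 0.73. CCND1 and CCND3 were 0.16 apart, and 219 genes lay nearer to CCND1 than CCND3 did. Around CCND2, which varied little, COL5A3, SUN5 and PYHIN1 were nearest at 0.018, 0.020 and 0.022. These distances describe 6 arrays in 2 groups. For CCND1 and CCND3 they are set mostly by the change between groups. The like changes of their nearest genes thus follow from how these genes were picked.

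Among other genes of the pathway, in 7 lists sorted by role, 52 of 106 measured genes were called, 18 higher and 34 lower. The lower ones include CDK4 and CDK6, listed as kinase partners, whose fall is the siRNA treatment itself. Of all genes 26.8% were called, 14.0% higher and 12.9% lower. The share of higher pathway genes thus lay near that of all genes, and the share of lower ones above it. With the dimmest 30% of genes left out, 5763 of 13842 genes were called, 2969 higher and 2794 lower. Of the pathway genes 60 of 103 were then called, 23 higher and 37 lower. The shares over all genes, here and below, are thus smaller than those among brighter genes. The arrays were also scaled to the hybridisation spike-ins, control RNAs whose mean was 10.25 in control and 10.15 in CDK4/6 siRNA arrays. This moved the median of all genes from -0.0011 to 0.11 and the split of the pathway genes to 29 higher and 22 lower. The spike-in values had themselves been through RMA, so the scaling is an alternative setting and not a measure of RNA per cell. With the spike-in scaling 4731 of all 19775 genes were called higher and 1320 lower. CCND1 (1.04), CCND3 (0.87) and CCND2 (0.11, not called) kept their calls under that scaling.

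**Figure D4:**
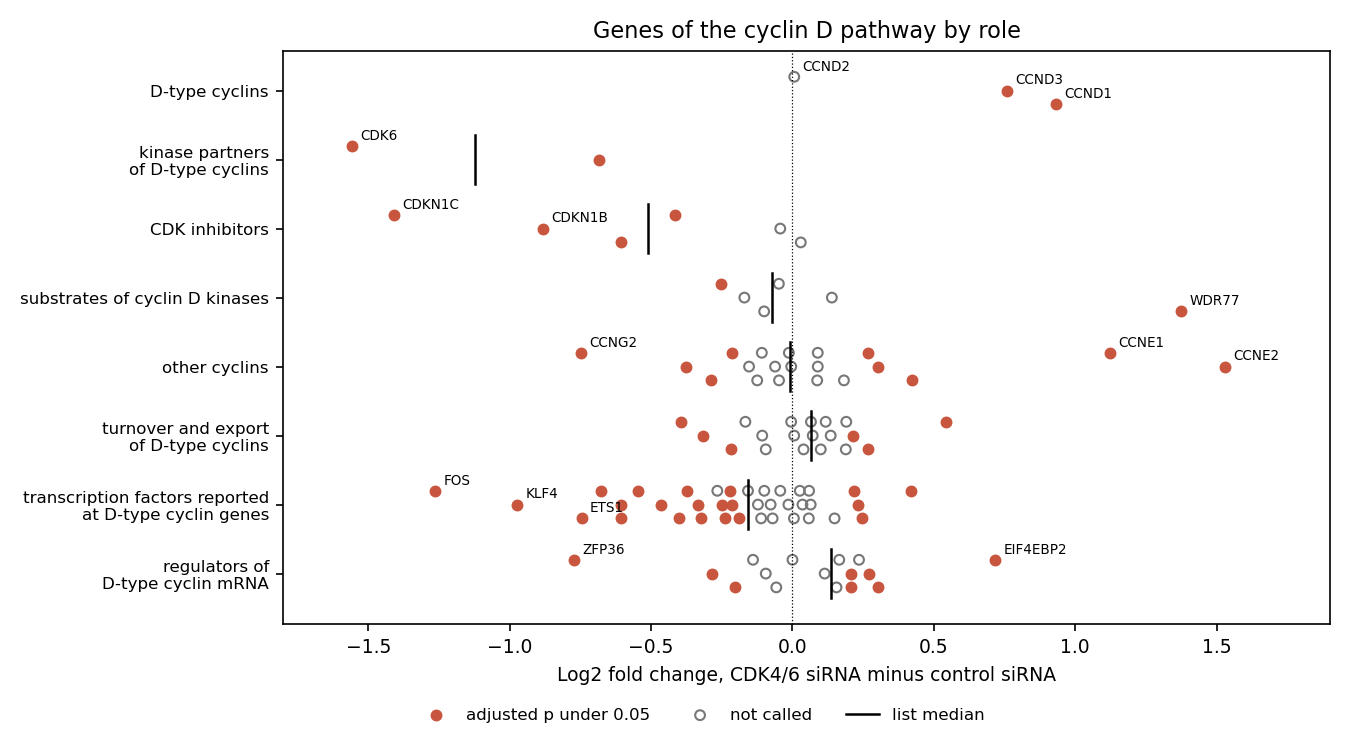
Log2 fold change (horizontal axis, CDK4/6 siRNA minus control siRNA) of the D-type cyclins and of the measured genes in 7 lists of the pathway (rows). Filled points passed an adjusted p of 0.05, open points did not, vertical bars are list medians, and points are offset vertically only to part them. CCND1 and CCND3 lie to the right of 0, and the kinase partners and 4 of 6 CDK inhibitors to the left.

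Of the 6 CDK inhibitors measured, 4 fell and none rose, where 12.9% of all genes were called lower, and the list median was -0.51. With the spike-in scaling the list counts were the same, where 1320 of 19775 genes were called lower. The CIP/KIP members CDKN1C (p57) and CDKN1B (p27) fell by 1.41 (SE 0.0627) and 0.88 (SE 0.0819). CDKN1B gave 10.44 ± 0.16 in control arrays and 9.56 ± 0.05 in CDK4/6 siRNA arrays (SD, n = 3). The INK4 members CDKN2B (p15) and CDKN2D (p19) fell by 0.61 and 0.41, while CDKN1A (p21) gave -0.043 and CDKN2A (p16) 0.029 without passing. Second, dimmer probe sets gave 0.073 for CDKN2B and -0.17 for CDKN2D and did not pass, and with both probe sets averaged CDKN2B fell by 0.27.

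Of 6 proteins that cyclin D kinases phosphorylate, 1 was higher and 1 lower in RNA, near the 14.0% and 12.9% of all genes. WDR77, a subunit of the PRMT5 arginine methylation complex, rose by 1.38 (SE 0.121), from 7.80 ± 0.27 to 9.18 ± 0.07 (SD, n = 3). RB1, the retinoblastoma protein, fell by 0.25 (SE 0.0699, limma adjusted p = 0.0267), a call lost with the spike-in scaling. It was also lost with the mean of its probe sets (-0.17), with no variance moderation, without control replicate 1 or 3 and without CDK4/6 siRNA replicate 1 or 2. The pocket proteins RBL1 (0.14) and RBL2 (-0.10) and the transcription factors FOXM1 (-0.048) and SMAD3 (-0.17) did not pass.

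Other cyclins went both ways, 5 of 20 higher and 4 lower, with a median of -0.0086. Over all genes 14.0% were called higher and 12.9% lower. With the spike-in scaling 6 cyclins were higher and 2 lower, where 4731 and 1320 of 19775 genes were. The E-type cyclins CCNE2 and CCNE1, which activate CDK2 after cyclin D has acted, rose by 1.53 (SE 0.174) and 1.12 (SE 0.0829). A second, dim CCNE1 probe set gave -0.067 and did not pass, and the mean of both gave 0.53. CCNJ rose by 0.30, a call lost where probe sets with shared probes (suffixed names) were left out (-0.051). CCNG2, known for its role in cell cycle arrest, fell by 0.75 (SE 0.0799), CCNI by 0.38 and the mitotic cyclin CCNB2 by 0.29, the last a call lost with the spike-in scaling and with its probe sets averaged.

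Genes for the turnover and export of cyclin D showed 3 higher and 3 lower of 19, or 8 and 2 with the spike-in scaling. As deposited, 14.0% and 12.9% of all genes were called in these directions, so the counts of 3 are near the background. The genes are given as values. With the spike-in scaling 4731 of 19775 genes were called higher and 1320 lower. SKP2, a substrate receptor of the SCF ubiquitin ligase, rose by 0.54, though a second probe set gave -0.097 without passing and the mean of all 3 was 0.23. FBXO31, an F-box protein that binds cyclin D1, rose by 0.27 and the scaffold CUL1 by 0.21. DYRK1A and GSK3B, kinases that phosphorylate cyclin D1 at the residue that marks it for destruction, fell by 0.39 and 0.31, and the scaffold CUL4B by 0.22, a call lost with the spike-in scaling. The other CUL4B probe sets fell further, by 0.44, 0.76 and 0.69, and the mean of all 4 fell by 0.53. Probe sets of GSK3B disagreed, since one rose by 0.52 and a dim one by 0.24, while another fell by 0.50. GSK3B (-0.076) and CUL1 (0.070) lost their calls with the mean of their probe sets, and DYRK1A (-0.0072) and FBXO31 (0.065) without suffixed probe sets. CUL1 gave -0.075 without its suffixed probe set, and it also lost its call with the replicate block, with no variance moderation, without control replicate 2 or 3 and without CDK4/6 siRNA replicate 1 or 3. AMBRA1, the receptor that delivers all 3 D-type cyclins to the CUL4 ligase, gave 0.072 and did not pass.

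Transcription factors reported at D-type cyclin genes were mostly lower where they were called. Of 37 measured, 17 fell and 4 rose, against 12.9% of all genes called lower and 14.0% higher, and the list median was -0.16. With the spike-in scaling 11 fell and 5 rose, where 1320 of 19775 genes were called lower and 4731 higher. FOS, a subunit of AP-1, fell by 1.26 (SE 0.123), from 7.67 ± 0.23 to 6.41 ± 0.17 (SD, n = 3), and its relative JUNB by 0.55. KLF4, a factor of differentiating epithelium, fell by 0.97 (SE 0.0710), ETS1, a target of MAP kinase signalling, by 0.75 (0.40 with the mean of its probe sets), TCF7L1, a Wnt pathway factor, by 0.68, and RBPJ, the DNA-binding partner of Notch, by 0.61. MYC, which the naming rule does not select but the series title names, rose by 0.42 (SE 0.0599), and CTNNB1, the beta-catenin gene, gave 0.058 without passing on its brightest probe set and rose by 0.48 on the next brightest.

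Regulators of cyclin D mRNA stability and translation had 5 of 16 higher and 3 lower, with a median of 0.13. Over all genes 14.0% were called higher and 12.9% lower. With the spike-in scaling 9 regulators were higher and 1 lower, where 4731 and 1320 of 19775 genes were. EIF4EBP2, which holds back the cap-binding protein, rose by 0.72 (SE 0.0613), or 0.40 with the mean of its probe sets, and the cap-binding protein EIF4E itself by 0.30. ZFP36, which promotes the decay of mRNAs with AU-rich elements, fell by 0.77 (SE 0.0689). IGF2BP3 fell by 0.29 and PUM2 by 0.20, calls lost with the spike-in scaling and without suffixed probe sets, and CPSF6 rose by 0.21, a call lost without control replicate 2 or CDK4/6 siRNA replicate 2. PUM2 also lost its call with the replicate block, without control replicate 2 or 3 and without CDK4/6 siRNA replicate 2 or 3, and EIF4E with the mean of its probe sets (0.17).

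Neighbouring genes were compared by their order in the RefSeq table, taking the 2 measured protein-coding genes on each side. Beside CCND1 all 4 were called higher, where 14.0% of all genes were, or 2969 of 13842 with the dimmest 30% left out. They were MYEOV (0.42, SE 0.0696), TPCN2 (0.48, SE 0.113), LTO1 (0.38, SE 0.0629) and FGF19, a growth factor that acts as a bile acid hormone (0.56, SE 0.0799), each changed by less than CCND1. TPCN2, a lysosomal channel, was dim and its probe sets disagreed, since another fell by 1.02, and its call was lost with its probe sets averaged, with no variance moderation and without control replicate 3. Beside CCND2 the flanking gene TIGAR, a fructose bisphosphatase, rose by 1.45 (SE 0.0931) and CRACR2A by 0.38, the latter not called with its probe sets averaged, while PARP11 (-0.16) and FGF23 (0.075) did not pass. Beside CCND3, BYSL, a ribosome assembly factor, rose by 0.62 (SE 0.0748) and the Mediator subunit MED20 by 0.33, a call that ended with its probe sets averaged and with no variance moderation. TAF8 fell by 0.26, a call lost with the spike-in scaling, with its probe sets averaged, without suffixed probe sets, with no variance moderation and when control replicate 1, control replicate 3, CDK4/6 siRNA replicate 2 or CDK4/6 siRNA replicate 3 was left out, and C6orf132 (0.16) did not pass.

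**Figure D5:**
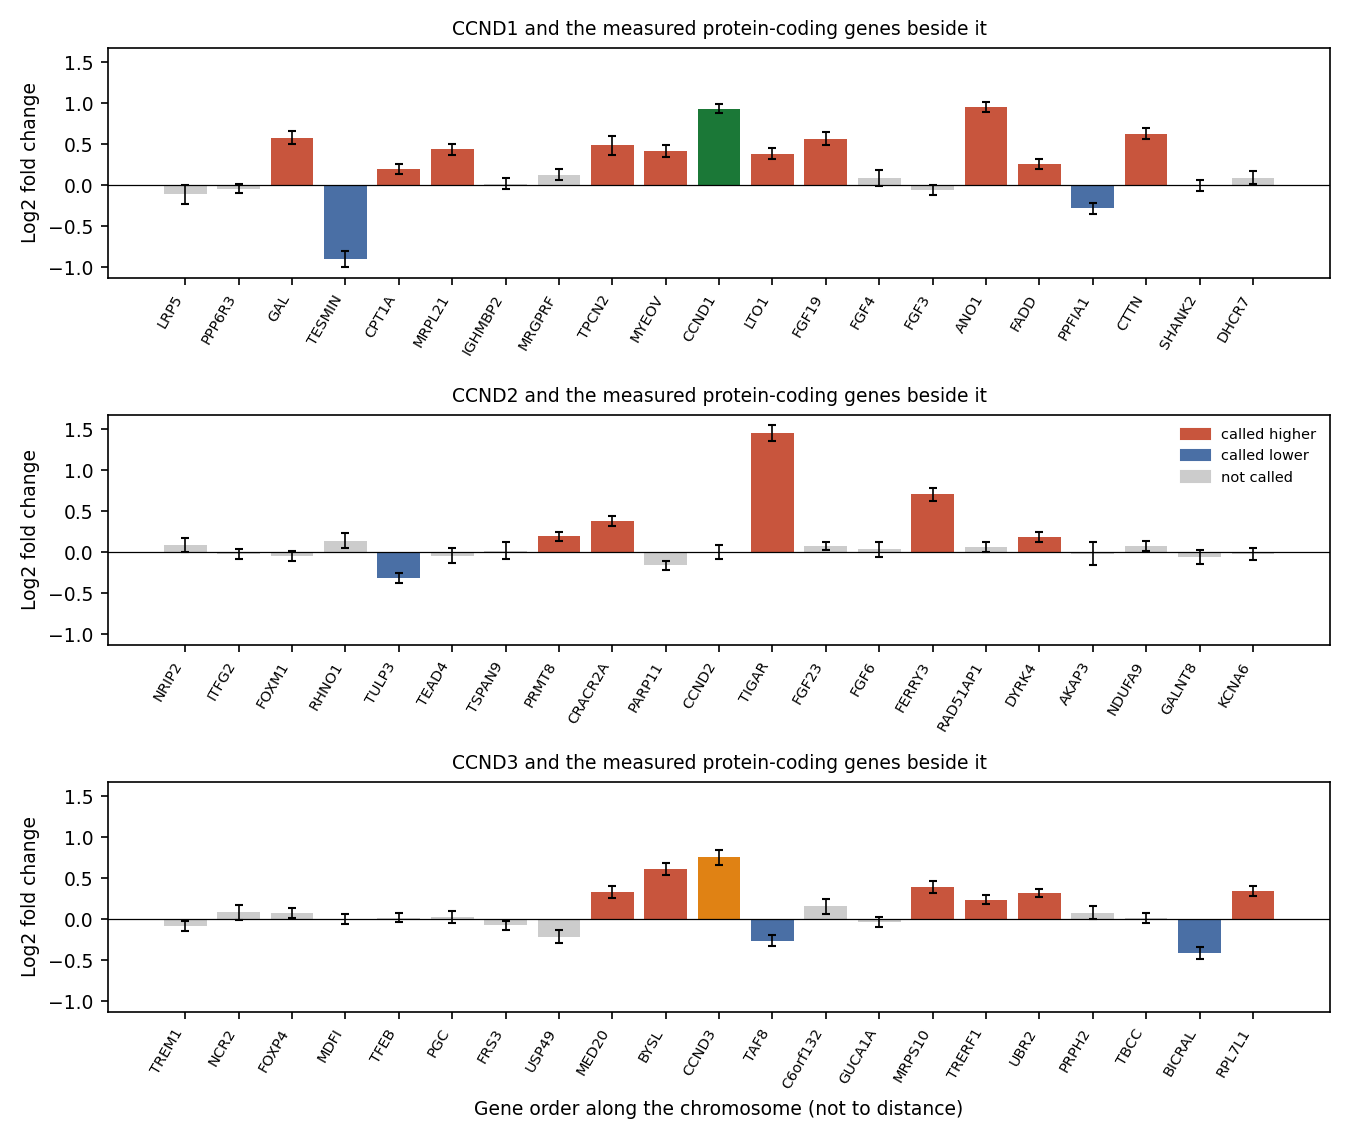
Log2 fold change (vertical axes, CDK4/6 siRNA minus control siRNA, bars with SE) of each D-type cyclin gene and the 10 measured protein-coding genes on either side, in chromosome order and not to distance. Red bars were called higher, blue lower and grey not called. Of the 20 genes around CCND1, 10 were higher and 2 lower, against 5 and 1 around CCND2 and 6 and 2 around CCND3. With the mean of all probe sets these counts were 7 and 2, 3 and 1, and 3 and 1, in that order. Among all genes 14.0% were called higher and 12.9% lower.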

How the data were processed

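The authors deposited 1 log2 expression value per probe set and array, and the submitters' processing notes name RMA (background correction, quantile normalisation, probe summary), version and filters not given in the sources used here. RMA makes array distributions alike, so changes are relative to the bulk of genes. Of 54675 probe sets, 41097 had 1 symbol, 1801 several and 11777 none. The 41091 with 1 symbol that were not array controls gave 19775 genes. The comparison was fitted with limma 3.58.1 in R 4.3.3 (lmFit, eBayes, group only, Benjamini-Hochberg over all genes, called under 0.05). Differences between members, and the values of the members, CDK4 and CDK6, had two-sided exact permutation tests. For single genes that p was 0.1, the smallest possible, for CCND1, CCND3, CDK4 and CDK6, and larger for CCND2. The adjusted p-values of single genes are those of limma. The number of arrays limits the precision.

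The members, the 7 pathway lists and the tests were chosen with earlier results of these data known. Named genes were the members' probe sets, the siRNA targets and up to 6 called genes per list with the smallest adjusted p. Genes not called were named where a list had few of them, as were the 3 genes most like each member and 2 neighbours per side. MYC, AMBRA1 and CTNNB1 were picked outside this rule. RefSeq tables (GRCh38.p14) gave names, gene order and promoters. The numbers shared by the groups did not pair the arrays (correlations of deviations -0.010, -0.12 and -0.0066). On simulated data with these 19775 genes, 99% of 100 genes changed by 0.5 were called and 100% of those changed by 1, with 12 false calls. The simulated noise was normal and independent between genes, and only 200 genes were changed. It thus checks the procedure and does not give the false calls among the real arrays. Alternatives covered normalisation, probe set summary, filter, variance model and arrays left out. Figures used matplotlib 3.10.9.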

Additional observations from a re-analysis of the deposited data

How the results depend on the processing

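CCND1 and CCND3 kept their direction and their call, and CCND2 stayed uncalled, under each of 17, 17 and 16 alternatives in turn (CCND2 has no plain-name probe set). The adjusted p of limma ran from 1.35e-08 to 0.00541 for CCND1, from 1.05e-05 to 0.0234 for CCND3 and from 0.392 to 0.979 for CCND2. With 1 array left out the changes ran from 0.90 to 0.96 for CCND1, 0.65 to 0.83 for CCND3 and -0.062 to 0.080 for CCND2, and the CCND1 change minus the CCND3 change from 0.064 (without control replicate 2) to 0.29 (without control replicate 3). With the mean of all probe sets that difference was 0.55, and the CCND2 change minus the CCND3 change was -0.42 against -0.75. With the replicate block the changes were the same by construction, 0.93, 0.0063 and 0.76, with limma adjusted p-values of 0.000158, 0.973 and 0.000802. The block gave 4738 called genes against 5307 and 46 called pathway genes against 52, and 0 of 6 arrays correlated best with their own number. At a threshold of 0.01, 3326 genes and 34 pathway genes were called. Of all called genes 52.0% were higher as deposited, 78.2% with the spike-in scaling. Signal near or below the array median limits what the CCND2 probe sets and 1562028_at can show.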

Other observations

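The chromosome 11 genes around CCND1 were looked at more widely after the nearest had been seen to rise, so this window was chosen after seeing the data and has no test. Of the 10 measured protein-coding genes on each side, 10 were higher and 2 lower (7 and 2 with the mean of all probe sets, 11 and 1 with the spike-in scaling). ANO1, a calcium-activated chloride channel, rose most, by 0.95 (SE 0.0627), from 8.67 to 9.62, and its second probe set also rose, by 0.53. GAL, the neuropeptide galanin, rose by 0.57, MRPL21, a mitochondrial ribosomal protein, by 0.44, and FADD, an adaptor of death receptors, by 0.26. CTTN, the actin-binding protein cortactin, rose by 0.63 on its brightest probe set, but 2 others fell, by 0.40 and 0.47, and its call ended with the mean of its probe sets. TESMIN, a testis-expressed gene of the same stretch, fell by 0.90, and PPFIA1 by 0.29, a call lost without control replicate 2, with no variance moderation and under scaling to the spike-ins. FGF3 (-0.059) and FGF4 (0.088), which lie between FGF19 and ANO1, were dim and did not pass.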
